A study of Mus musculus with 8 samples.

Results

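This account covers 10 imprinted genes, Peg3, Mest, Ndn, H19, Igf2, Dlk1, Meg3, Plagl1, Grb10 and Zim1, chosen by symbol from a table of 31276 genes. All 10 were found, and 7 passed a filter on low values. They were chosen with earlier results of these data known. Counts of members set beside the share of all genes are therefore a description only. Expression was measured by RNA-seq in 8 libraries of C3H10T1/2 cells, an established line from mouse embryos whose mesenchymal cells can become bone, cartilage or fat. Each library came from cells that stably express a FLAG-HA-tagged histone H3 transgene. In 6 libraries this was H3.3, either wild type (WT) or with lysine 36 replaced by alanine (K36A), isoleucine (K36I), leucine (K36L), methionine (K36M) or arginine (K36R). In the other 2 it was H3.1, carrying K36M or K36R. All of them share the same parent line and culture medium, and no H3.1 wild type or transgene-free library was analysed here. The design asks how the substitutions alter the transcriptome.

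Imprinted genes are expressed from 1 parental allele, and which one is set by DNA methylation that the germ line lays down on the copy from 1 parent and that is kept through early development. The methylated copy can be the silent one, as at Peg3 and Mest. They cluster in domains, many act in fetal growth, and several are high in embryonic mesenchyme and fall after birth. H3K36 methylation is a mark of transcribed chromatin, and K36M and K36I are known as inhibitors of the enzymes that write it. The reads were counted per gene, so the parental alleles were not separated, and whether a gene was expressed from 1 allele in these cells could not be read from the values.

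Of the members, Peg3, Zim1, Ndn, H19 and Igf2 lie on chromosome 7, Mest on 6, Plagl1 on 10, Grb10 on 11, and Dlk1 and Meg3 on 12 (GENCODE M21, GRCm38). Peg3 (6703892 to 6730431, minus strand) and Zim1 (6671269 to 6696450, minus strand) are neighbours 7.44 kb apart. Beyond Peg3, the start of Usp29 (6730578 to 6967219, plus strand) lies 146 bases away. H19 (142575529 to 142578143) and Igf2 (142650766 to 142666816) are on the minus strand, 72.6 kb apart. Dlk1 (109452823 to 109463336) and Meg3 (109541001 to 109571726) are on the plus strand, 77.7 kb apart. Exons of Mest (30723547 to 30748465, chromosome 6) overlap those of Copg2 on the opposite strand. Exons of Igf2 overlap those of Igf2os, and those of H19, Meg3 and Plagl1 overlap predicted genes, also on opposite strands. Igf2 and Meg3 exons further overlap predicted genes on their own strand, where strand would not separate the reads. Whether counting used strand is not given in the sources used here, so reads of such pairs could not be told apart. Copg2 itself stood at 3409 to 5932 normalised reads. MicroRNA genes lie inside exons of H19 and Meg3.

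Promoter windows are shown for the genes whose levels the results turn on: the Peg3 and Zim1 neighbours, Mest, Meg3, and Snurf, whose window is listed for Snrpn too. They come from RefSeq (GRCm38.p6), which gave a window for 9 of the 10 members, and each runs from 250 bases before to 50 bases after a start, 5′ to 3′ on the gene's strand. Capitals mark the letters TGCCGC on either strand, the hexamer that ZFP57, a zinc finger protein that keeps imprints, recognises when it is methylated.
Peg3, chr7:6730370-6730669, minus strand: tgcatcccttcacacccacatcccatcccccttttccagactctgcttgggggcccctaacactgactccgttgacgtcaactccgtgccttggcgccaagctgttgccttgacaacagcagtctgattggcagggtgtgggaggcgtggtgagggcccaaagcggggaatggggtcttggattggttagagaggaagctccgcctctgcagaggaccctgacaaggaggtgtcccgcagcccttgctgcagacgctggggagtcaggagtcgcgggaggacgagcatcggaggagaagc
Zim1, chr7:6696383-6696682, minus strand: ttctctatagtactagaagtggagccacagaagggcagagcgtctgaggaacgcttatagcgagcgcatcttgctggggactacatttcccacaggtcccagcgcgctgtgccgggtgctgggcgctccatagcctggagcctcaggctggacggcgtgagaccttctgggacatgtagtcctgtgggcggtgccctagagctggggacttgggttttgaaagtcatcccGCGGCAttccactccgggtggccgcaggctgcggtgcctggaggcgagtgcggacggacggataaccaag
Mest, chr6:30737800-30738099, plus strand: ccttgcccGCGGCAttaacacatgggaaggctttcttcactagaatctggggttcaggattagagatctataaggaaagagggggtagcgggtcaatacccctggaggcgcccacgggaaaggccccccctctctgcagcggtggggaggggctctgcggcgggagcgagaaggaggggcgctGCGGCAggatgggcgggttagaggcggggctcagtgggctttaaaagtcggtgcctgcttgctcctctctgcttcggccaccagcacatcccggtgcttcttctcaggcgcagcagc
Meg3, chr12:109540746-109541045, plus strand: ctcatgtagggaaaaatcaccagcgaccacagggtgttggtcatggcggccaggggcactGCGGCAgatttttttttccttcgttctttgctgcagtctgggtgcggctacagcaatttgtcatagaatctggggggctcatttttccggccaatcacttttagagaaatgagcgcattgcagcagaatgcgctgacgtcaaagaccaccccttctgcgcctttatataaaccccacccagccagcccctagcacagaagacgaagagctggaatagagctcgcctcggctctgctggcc
Snurf and Snrpn, chr7:60005150-60005449, minus strand: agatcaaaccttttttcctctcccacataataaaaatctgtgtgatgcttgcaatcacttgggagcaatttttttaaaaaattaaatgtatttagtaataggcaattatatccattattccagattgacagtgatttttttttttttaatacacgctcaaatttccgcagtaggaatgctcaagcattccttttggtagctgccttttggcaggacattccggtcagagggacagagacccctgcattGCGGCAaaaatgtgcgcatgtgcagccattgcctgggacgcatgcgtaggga
The hexamer occurs 2 times in the Mest window shown, 1 time each in those of Zim1, Meg3 and Snurf, and 0 times in that of Peg3. Other starts are listed for Mest, Meg3 and Snrpn, and only 1 window of each is shown. The Mest window at 30733256, the Meg3 window at 109545148 and the other Snrpn windows hold 0, and a Mest window at 30737803 holds 2. Among members not shown, the Ndn and Dlk1 windows hold 0, that of Plagl1 holds 1, and those of Igf2 and Grb10 hold 0 or 1. Of 32817 windows of this length, 11.6% hold it on either strand. In the windows shown, CpG dinucleotides number 13 in Peg3, 20 in Zim1, 17 in Mest, 13 in Meg3 and 7 in Snurf, against a median of 7 over all windows. The Peg3 window shares 263 bases with the window of Usp29, which is read from the opposite strand. The letters are a description of these windows, and methylation was not measured here.

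H19 and Mest also carry microRNAs, whose mature sequences are shown because their host transcripts were among the members that varied most between libraries. The seed, bases 2 to 8, is in capitals (RefSeq, GRCm38.p6). No seed is shared among the 4.
miR-675-5p, in an exon of H19: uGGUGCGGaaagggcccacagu
miR-675-3p, in an exon of H19: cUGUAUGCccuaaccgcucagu
miR-335-5p, in an intron of Mest: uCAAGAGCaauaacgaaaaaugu
miR-335-3p, in an intron of Mest: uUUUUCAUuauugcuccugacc
The files count reads over exons of genes, and the mature microRNAs themselves were not measured.

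Values were deposited as log2 numbers from a variance-stabilising transformation, in which 5.95 stands for 0 reads. Inverting the transformation recovered whole reads, 61139941 to 68020958 per H3.3 library, 45448249 for H3.1 with K36M and 53199065 for H3.1 with K36R. Normalised reads below are these reads divided by the size factor of the library, and differences are between the deposited log2 values, which compress genes with few reads. A gene was tested if its mean log2 value over the libraries fitted exceeded that of 0 reads by 1 or more. A gene with 30.97 normalised reads in every library would just reach this. Because the mean is of log2 values, a gene with uneven reads can average more than that and still not pass. No transgene had a second library. The 3 libraries with K36M or K36I (the K36M/I class) were therefore set against the other 5 with limma, with Benjamini-Hochberg adjustment over all genes tested. Nothing in the labels says that a line was derived or grown more than once, so a p-value reflects how much the lines vary, part of which may be technical. The defining genes of the labelled cell type were present: the 9 mesenchymal genes (such as Col1a1, Vim and Prrx1) summed to 527933 to 710661 normalised reads in the class and 711260 to 983489 in the other libraries. Transcripts of the endogenous H3.3 genes were at 7441 to 11932 (H3f3a) and 43612 to 103244 (H3f3b) normalised reads, and whether the counts include transgene reads is not known.

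The members spanned a wide range of levels. In reads per kb of exon, scaled to the library total (RPKM), Grb10 stood highest, at 60.1 to 105 over the 8 libraries, with a median of 77.4. The median of Ndn was 4.68 on this scale, that of Meg3 1.27, of Mest 0.978 and of H19 0.581. Each of these 4 ranged widely between libraries (0.802 to 8.34 for Ndn, 0.651 to 3.07 for Meg3, 0.618 to 11.4 for Mest and 0.0179 to 11.2 for H19), so their order differs from library to library. Plagl1 (median 0.314) and Peg3 (0.233) came next and overlapped too. Igf2 (0.0605), Dlk1 (0.0460) and Zim1 (0) were lowest, and these 3 are the members that did not pass the filter.

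**Figure D1:**
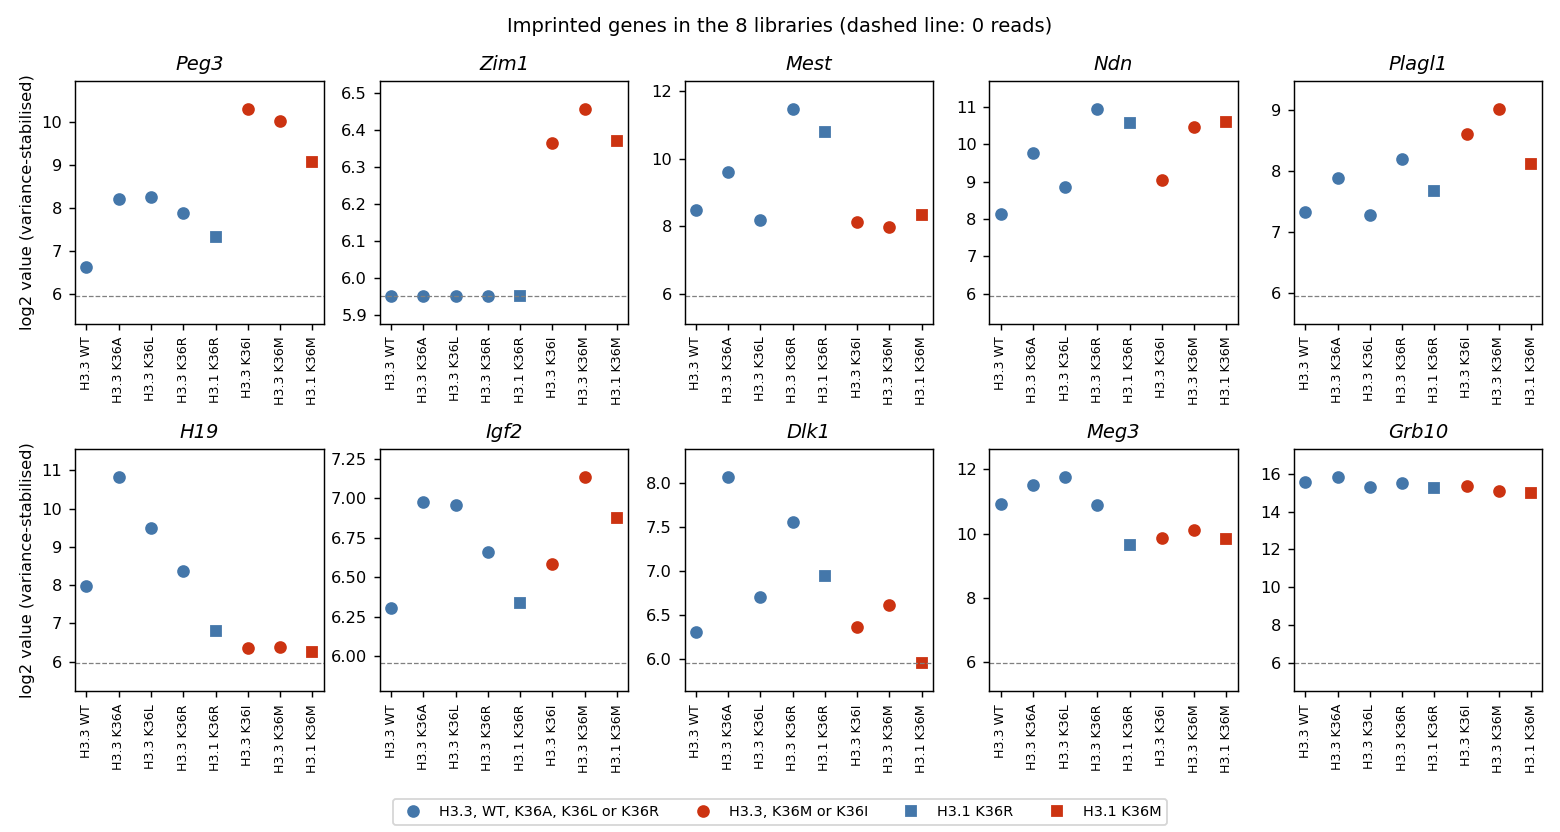
Log2 values (variance-stabilised) of the 10 imprinted genes on the y axis, 1 point per library on the x axis, red for K36M or K36I and blue for the rest, circles for H3.3 and squares for H3.1. Peg3 and Zim1 are higher in all 3 red points than in any blue one and H19 is lower, whereas Ndn and Igf2 mix.

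Peg3 was the member that differed most clearly between the classes. It is a paternally expressed gene for a large zinc finger protein, known for roles in growth, cell death and maternal care. Normalised reads were 13.01 in H3.3 WT, 186 in H3.3 K36A, 192 in H3.3 K36L, 126 in H3.3 K36R and 59.0 in H3.1 K36R. They were 1138 in H3.3 K36I, 911 in H3.3 K36M and 417 in H3.1 K36M. The classes did not overlap, and H3.3 WT was the lowest library of all. The means were 822 ± 369 (SD, n = 3) in the K36M/I class and 115 ± 78.4 (SD, n = 5) in the others, and Peg3 rose by 2.14 on the log2 scale (SE 0.42, limma adjusted p = 0.0120). It was the only called member of the 7 tested, while 13.3% of all 14215 genes tested were called, 6.45% higher in the class and 6.82% lower. The call was narrowly lost without H3.3 K36I (adjusted p = 0.0509) or H3.3 K36M (adjusted p = 0.0563) and held without each of the other 6 libraries.

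Zim1, a maternally expressed zinc finger gene beside Peg3, was close to absent. It had 6 reads in H3.3 K36I, 8 in H3.3 K36M and 4 in H3.1 K36M, and 0 in each of the other 5 libraries, where up to 3 reads would be compatible with a count of 0. All its reads thus fell in the libraries with the most Peg3. Zim1 was tested only when the filter was dropped (0.45, SE 0.05, limma adjusted p = 0.00119), with 11.0% of genes called in that fit. The 5 libraries at 0 add no spread to that SE. Zim1 entered that fit only through its reads in the class libraries. The direction was thus fixed beforehand, and the p-value adds no support to the counts. Usp29, which starts next to Peg3 on the other strand, had 6.81 normalised reads in H3.3 K36I, 1.91 in H3.3 K36M and 5.26 in H3.1 K36M, and 0 in the other 5.

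H19 had the widest range of the members. It encodes a maternally expressed noncoding RNA that is abundant in fetal mesoderm and, at its domain, is expressed from the opposite allele to Igf2. Normalised reads were 1696 in H3.3 K36A, 600.2 in H3.3 K36L, 217 in H3.3 K36R, 145 in H3.3 WT and 21.9 in H3.1 K36R. In the K36M/I class they were 5.10 in H3.3 K36I, 5.73 in H3.3 K36M and 2.63 in H3.1 K36M, which are 6, 6 and 2 reads. The classes did not overlap. The spread among the other 5 libraries was large, at 536 ± 684 (SD, n = 5). The difference of -2.36 (SE 0.77) did not pass the class test (limma adjusted p = 0.0796). The filter kept H19 only through the libraries where it is high, so its tests are in part decided by the filter, and without the filter the adjusted p was 0.0773. The alternatives divided: the adjusted p was 0.198 by limma-voom and 0.0833 with library medians set equal, and 0.0424 within H3.3, 0.0231 without H3.1 K36R, 0.0193 with array weights and 0.0184 on log2 of normalised reads plus 1.

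Igf2, the fetal growth factor expressed from the paternal copy of that domain, stayed low throughout. It had 3.72 normalised reads in H3.3 WT, 32.6 in H3.3 K36A, 31.2 in H3.3 K36L, 15.2 in H3.3 K36R and 4.37 in H3.1 K36R. It had 11.9 in H3.3 K36I, 43.9 in H3.3 K36M and 26.3 in H3.1 K36M. The classes overlapped, and Igf2 did not pass the filter. H3.3 K36A and H3.3 K36L, the libraries with the most H19, also held 32.6 and 31.2 Igf2 reads, and the library with the most Igf2, H3.3 K36M, was among those with the fewest H19 reads. Across the 5 libraries of the other class, H3.3 WT and H3.1 K36R had the least of both genes.

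Dlk1 and Meg3 belong to the same domain on chromosome 12. Dlk1, a paternally expressed membrane protein related to Notch ligands and known to hold back fat cell formation, had 3.72 normalised reads in H3.3 WT, 159 in H3.3 K36A, 17.5 in H3.3 K36L, 84.5 in H3.3 K36R and 30.6 in H3.1 K36R. In the class it had 5.10 in H3.3 K36I, 13.4 in H3.3 K36M and 0 in H3.1 K36M. It was highest in H3.3 K36A, the classes overlapped through H3.3 WT, and it did not pass the filter.

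Meg3, a maternally expressed noncoding RNA, had 1825 normalised reads in H3.3 WT, 2812 in H3.3 K36A, 3351 in H3.3 K36L, 1760 in H3.3 K36R and 684 in H3.1 K36R. It had 804 in H3.3 K36I, 972 in H3.3 K36M and 789 in H3.1 K36M. Both H3.1 libraries thus lay with the K36M/I class, below every other H3.3 library, and H3.1 K36R was the lowest of the 8. The class difference of -1.02 (SE 0.41) did not pass (limma adjusted p = 0.147), but did within H3.3 (-1.30, SE 0.26, adjusted p = 0.0186) and without H3.1 K36R (-1.35, adjusted p = 0.00901).

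Among the other transcripts of that domain, Rian, Mirg and Rtl1 lay close to Meg3 in each library. Rian and Mirg are maternally expressed noncoding RNAs downstream of Meg3 that host small RNAs, and Rtl1 is a paternally expressed gene derived from a retrotransposon. Rian had 5021 normalised reads in H3.3 WT, 7482 in H3.3 K36A, 7535 in H3.3 K36L, 5116 in H3.3 K36R and 1966 in H3.1 K36R. It had 2058 in H3.3 K36I, 3190 in H3.3 K36M and 2382 in H3.1 K36M. The ratio of Meg3 to Rian normalised reads stayed between 0.305 and 0.445 over the 8 libraries, without correction for length. The class differences of Rian (-0.94, SE 0.40), Mirg (-0.80, SE 0.33) and Rtl1 (-0.75, SE 0.33) did not pass either (limma adjusted p = 0.162, 0.153 and 0.176). All 3 passed within H3.3 (-1.23, -0.95 and -0.97, adjusted p = 0.0157, 0.0243 and 0.0192). Rian, Mirg and Rtl1 are named here after their values were seen. Begain (8.51 to 27.5 normalised reads, highest in H3.3 K36R) and Dio3 (4 reads, all in H3.1 K36R), further genes listed for the domain, did not pass the filter. Rtl1 lies on the opposite strand to maternal transcripts of the region, so its reads may in part be theirs.

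**Figure D2:**
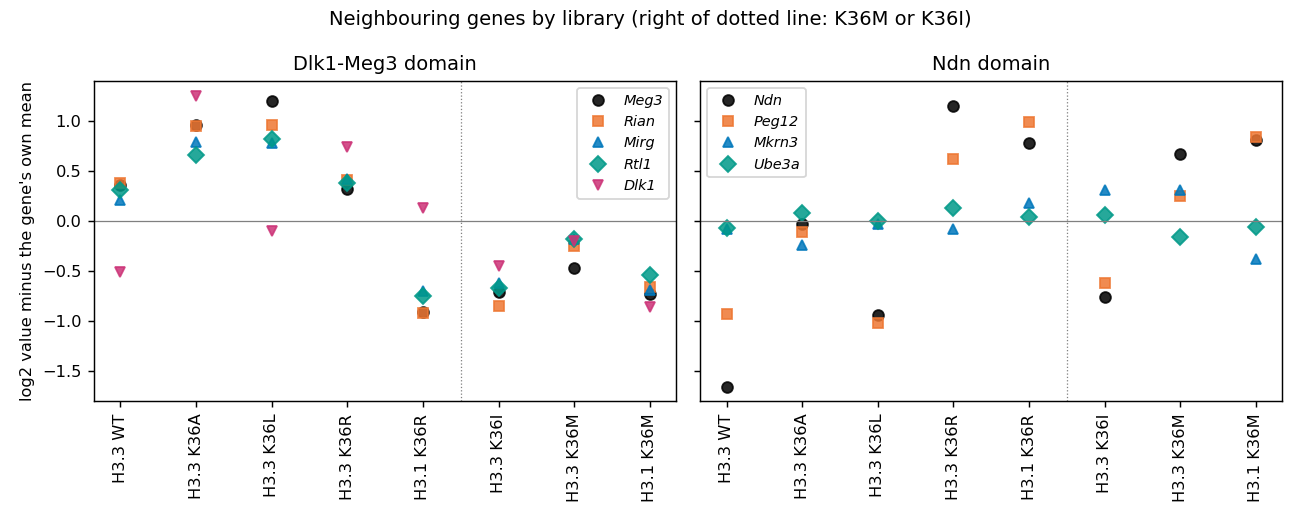
Log2 value minus the gene's own mean over the 8 libraries on the y axis, by library on the x axis, for genes of the Dlk1-Meg3 domain (left) and the Ndn domain (right), with K36M or K36I libraries to the right of the dotted line. Meg3, Rian, Mirg and Rtl1 lie close together in each library while Dlk1 departs from them. Ndn and Peg12 track each other, whereas Mkrn3 departs from both and Ube3a stays near 0.

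Mest did not separate the classes but did separate K36M from K36R. It is a paternally expressed gene of the alpha/beta hydrolase fold family, high in embryonic mesoderm and tied to fat cell size. Normalised reads were 2700 in H3.3 K36R and 1637 in H3.1 K36R, 652 in H3.3 K36A, 246 in H3.3 WT and 178 in H3.3 K36L. They were 168 in H3.3 K36I, 142 in H3.3 K36M and 209 in H3.1 K36M. The K36R lines of both histones were the highest of the 8, and H3.3 WT and H3.3 K36L lay near the K36M/I class. The class difference of -1.56 (SE 0.71) did not pass (limma adjusted p = 0.193).

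K36M and K36R are the only substitutions present in both histones, and were compared over 4 libraries with histone as a term. Mest was 2.97 lower in K36M than in K36R (SE 0.29, limma adjusted p = 0.0204), with -3.49 between the H3.3 libraries and -2.45 between the H3.1 libraries. Relative to H3.3 WT, Mest differed little in K36M (-0.52 in H3.3, -0.16 in H3.1) and was higher in K36R (2.97 in H3.3, 2.29 in H3.1). Peg3 was 1.95 higher in K36M (SE 0.19, adjusted p = 0.0202), with 2.14 in H3.3 and 1.75 in H3.1. Mest and Peg3 were 2 of the 6 members tested, while 4.30% of 14321 genes were called, 2.14% higher in K36M and 2.16% lower. Plagl1 (0.64, SE 0.19, adjusted p = 0.180), Ndn (-0.22, SE 0.18), Grb10 (-0.35, SE 0.17) and Meg3 (-0.30, SE 0.27) did not pass. H19 did not pass the filter over these 4 libraries. The spread here rests on 1 residual degree of freedom per gene, and the Peg3 call was lost without the histone term (adjusted p = 0.110) or with the spread taken from all 8 libraries (adjusted p = 0.0917), while Mest kept its call in both.

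**Figure D3:**
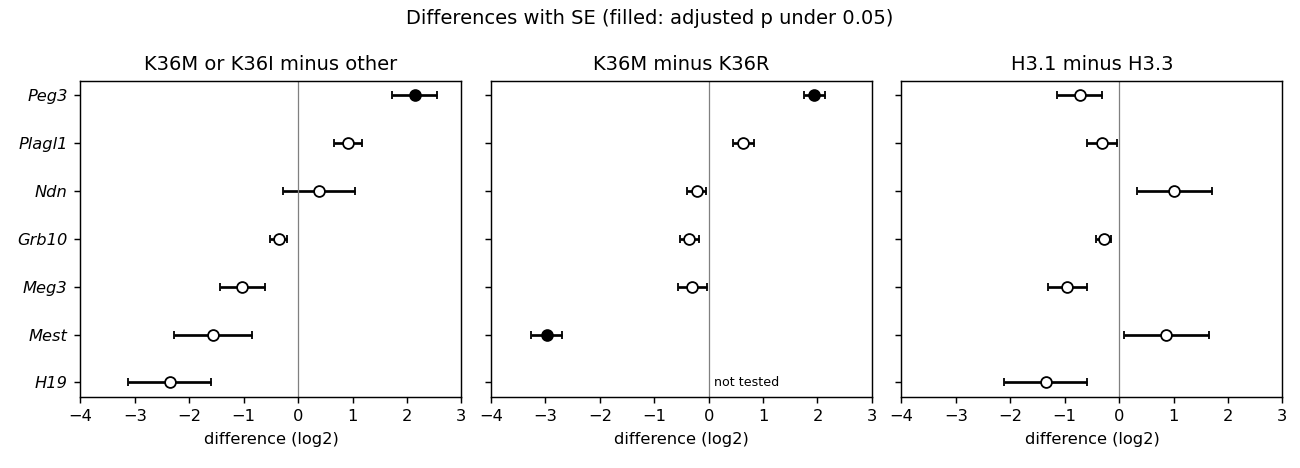
Differences on the log2 scale (x axis) with SE bars for the 7 members past the filter, for K36M or K36I against the other libraries, K36M against K36R, and H3.1 against H3.3, with filled points for adjusted p under 0.05. Peg3 is filled in the first and second panels, Mest in the second, and no member in the third, where the points lie between -1.35 and 1.01.

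Plagl1, a paternally expressed zinc finger transcription factor known to act on other imprinted genes, lay just short of the class threshold. Normalised reads were 61.3 in H3.3 WT, 128 in H3.3 K36A, 56.5 in H3.3 K36L, 181 in H3.3 K36R and 99.5 in H3.1 K36R. They were 278 in H3.3 K36I, 403 in H3.3 K36M and 168 in H3.1 K36M. The classes overlapped only in that H3.3 K36R stood above H3.1 K36M. The difference was 0.91 (SE 0.26, limma adjusted p = 0.0511). It passed within H3.3 (1.15, SE 0.28, adjusted p = 0.0349), with histone as a term (0.95, adjusted p = 0.0320) and with library medians set equal (0.96, adjusted p = 0.0426). Leaving out H3.3 K36R or H3.1 K36M also brought it past the threshold (adjusted p = 0.0351 and 0.0250).

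Ndn encodes necdin, a paternally expressed MAGE family protein that binds E2F1 and p53 and is linked to cell cycle exit. It had 173 normalised reads in H3.3 WT, 755 in H3.3 K36A, 349 in H3.3 K36L, 1855 in H3.3 K36R and 1408 in H3.1 K36R. It had 412 in H3.3 K36I, 1302 in H3.3 K36M and 1443 in H3.1 K36M. The range was as wide within each class as between them, and the difference of 0.38 (SE 0.66) did not pass (limma adjusted p = 0.764). Its neighbour Peg12, also paternally expressed, followed it, with 106 in H3.3 WT, 259 in H3.3 K36A, 93.5 in H3.3 K36L, 502 in H3.3 K36R and 682 in H3.1 K36R. In the class Peg12 had 152 in H3.3 K36I, 363 in H3.3 K36M and 602 in H3.1 K36M. H3.3 WT and H3.3 K36L were the lowest and the K36R, H3.1 K36M and H3.3 K36M libraries the highest for both genes. Mkrn3, which lies between Ndn and Peg12, did not follow them. It was lowest in H3.1 K36M (42.1 normalised reads) and highest in H3.3 K36M and H3.3 K36I (both 116). Ndn also had at least 1 more on the log2 scale than H3.3 WT in H3.3 K36A (1.63), H3.3 K36M (2.33), H3.3 K36R (2.80), H3.1 K36M (2.47) and H3.1 K36R (2.43).

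Grb10, an adaptor that dampens insulin and IGF receptor signalling and is expressed from the maternal allele outside the brain, was the steadiest of the members past the filter. It had 49662 normalised reads in H3.3 WT, 58807 in H3.3 K36A, 40805 in H3.3 K36L, 47636.5 in H3.3 K36R and 38869 in H3.1 K36R. It had 42223.5 in H3.3 K36I, 34788 in H3.3 K36M and 32606.5 in H3.1 K36M. The means were 36539 ± 5042 (SD, n = 3) in the class and 47156 ± 7926 (SD, n = 5) in the others. The classes overlapped, and the difference of -0.36 (SE 0.15) did not pass (limma adjusted p = 0.157).

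Over the 7 members tested, 5 had an unadjusted p under 0.05 in the class test, as had 28.3% of all genes tested. Their median difference was -0.36, beside -0.01 over all genes, with 3 positive and 4 negative. The classes did not overlap in 2 of the 7 (Peg3 and H19), against 21.5% of all genes. Within the 6 H3.3 libraries they did not overlap in 5 of the 7, the exceptions being Ndn and Grb10, against 44.5% of all genes, and 4 members were called (Peg3, H19, Meg3 and Plagl1), against 17.8%. These counts are a description only, since the members were chosen with earlier results of these data known. H19, which is in each of them, was also kept by the filter through the group where it is high.

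Relative to H3.3 WT, with 1 library a side and no test, 4 of the 7 members were at least 1 higher in H3.3 K36A and 0 lower, against 2.08% of genes that differed by that much in either direction. In H3.3 K36L 2 were higher and 0 lower (1.03% of genes), and in H3.3 K36R 3 were higher and 0 lower (1.76%). In H3.3 K36I 2 were higher and 2 lower (7.63%), in H3.3 K36M 3 higher and 1 lower (8.69%), and in both H3.1 K36M (10.3%) and H3.1 K36R (3.33%) 2 higher and 2 lower. All these comparisons share the H3.3 WT library, which had the lowest Peg3 and Ndn of the 8. H19 was 2.84 above it in H3.3 K36A. The members were chosen with earlier results of these data known, and the filter kept H19 through libraries where it is high. The counts against H3.3 WT are thus a description only.

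Between histones, with class as a term, 0 of 7 members were called, by limma on the deposited values or by limma-voom on the recovered reads, while 11.0% of genes were, 5.65% higher in H3.1 and 5.37% lower. At an unadjusted p under 0.05, reached by 30.4% of genes, Meg3 alone of the members was lower in H3.1 (-0.95, SE 0.35, limma adjusted p = 0.116). Ndn (1.01, SE 0.69), Mest (0.86, SE 0.78), H19 (-1.35, SE 0.76) and Peg3 (-0.73, SE 0.42) had limma adjusted p of 0.354, 0.490, 0.271 and 0.280. Peg3 passed without H3.3 WT (-0.94, adjusted p = 0.0250). Mest and Ndn turned to -0.16 and -0.12 when only the 4 libraries with K36M or K36R were used. In the test that follows, the class difference in H3.1 is K36M against K36R, with no second library on either side. In H3.3 it is K36M and K36I against WT, K36A, K36L and K36R, so substitution and histone are mixed. A test of whether the class difference differed between the histones called 0 of 14215 genes, with 11.1% at an unadjusted p under 0.05, and among the members Meg3 had the lowest unadjusted p (difference of differences 1.48, SE 0.51, limma adjusted p = 0.369). By limma-voom the count was also 0.

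Other genes of imprinted domains were read from a list of 70, some imprinted only in certain tissues or lying beside imprinted genes. Of these 68 were in the table and 42 passed the filter. In the class test 3 rose and 1 fell, 4 of 42 beside 13.3% of all genes, with a median difference of -0.08. Sfmbt2, a Polycomb-related gene expressed from the paternal allele in trophoblast, rose by 1.43 (SE 0.27, limma adjusted p = 0.0107), with 628 to 789 normalised reads in the class and 72.5 to 358 in the other 5 libraries. Blcap (0.48, SE 0.12, adjusted p = 0.0288), the gene that contains Nnat, and Pon2 (0.47, SE 0.08, adjusted p = 0.00530), a paraoxonase of the Peg10 domain, rose less. Cobl, an actin nucleator near Grb10, fell by 1.66 (SE 0.25, adjusted p = 0.00389): it had 14.3 to 31.5 normalised reads in the class and 127 to 371 in the other libraries. The filter kept Cobl only through those other libraries, and without it the adjusted p was 0.00340. The Blcap call did not survive the removal of H3.3 WT, K36A, K36L or K36M (adjusted p = 0.0527 to 0.0892), nor that of Sfmbt2 the removal of H3.3 K36M (0.0524). Between histones, Slc22a2 was higher in H3.1 (1.06, SE 0.18, adjusted p = 0.0158), and Casd1 (-1.39, SE 0.18, adjusted p = 0.00648) and Atp10a (-0.45, SE 0.10, adjusted p = 0.0324) were lower, 3 of 42 beside 11.0%. Without H3.1 K36M all 3 calls were lost (adjusted p = 0.0957, 0.0570 and 0.167), and without H3.1 K36R those of Slc22a2 (0.0936) and Atp10a (0.127). Atp10a also lost its call when H3.3 WT, K36A or K36L was left out (0.0509 to 0.0624).

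**Figure D4:**
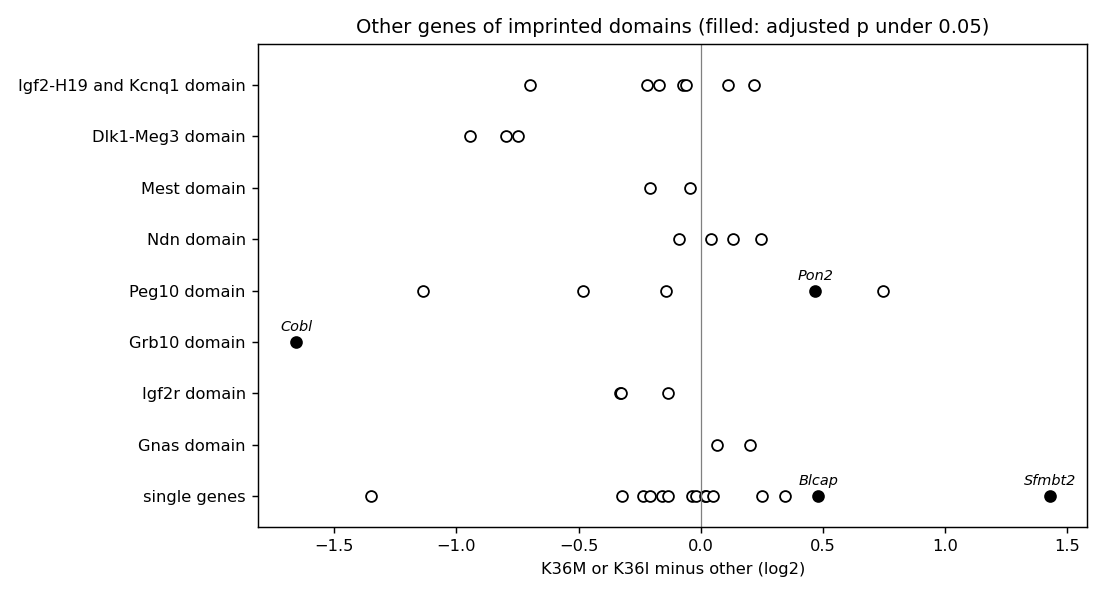
Class difference on the log2 scale (K36M or K36I minus the other libraries, x axis) for 42 other genes of imprinted domains, grouped by domain on the y axis, filled where adjusted p was under 0.05. The 3 Dlk1-Meg3 domain genes tested lie together between -0.94 and -0.75, and Cobl (-1.66) and Sfmbt2 (1.43) lie at the ends.

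Of the listed genes below the filter, Snrpn, Snurf, Asb4, Slc22a3 and Usp29 were higher in all 3 K36M/I libraries than in any other, and Th was lower. They are named after their values were seen, as those in which the classes separate. The share of all genes below the filter that separate in this way was not counted, so no excess can be read from them. Snrpn and Snurf, which share a transcript of the domain that also holds Ndn, encode a splicing protein and a small upstream protein and are paternally expressed. Snrpn had 59.6 normalised reads in H3.3 K36I, 108 in H3.3 K36M and 145 in H3.1 K36M. It had 1.86 in H3.3 WT, 5.75 in H3.3 K36A, 6.82 in H3.3 K36L and 0 in both K36R libraries. Snurf had 29.8, 79.2 and 124 in the class, in the same order, and between 0 and 3.90 in the other 5. Because their exons overlap, the share of reads of each is uncertain. Asb4, of the Peg10 domain, had 110 in H3.3 K36I, 59.2 in H3.3 K36M and 48.6 in H3.1 K36M, against 1.86 to 17.2 in the other 5. Without the filter the class differences were 1.49 for Snrpn (SE 0.17, limma adjusted p = 0.00108) and 1.37 for Snurf (SE 0.19, adjusted p = 0.00225), and Asb4 had an adjusted p of 0.00396. Slc22a3, an organic cation transporter gene of the Igf2r domain, had 1.91 to 5.26 in the class and 0 in the other 5 (adjusted p = 0.00591). Th, which encodes tyrosine hydroxylase and lies beyond Igf2, was at 0 in all 3 class libraries and had 6.56 to 23.7 in the other 5 (-0.65, SE 0.10, adjusted p = 0.00470). In that fit 8 of the 64 listed genes tested were called higher and 2, Cobl and Th, lower, beside 11.0% of all 23001 genes tested. Libraries at 0 add no spread to these SEs. Slc22a3 and Usp29 entered that fit only through the class libraries and Th only through the others. Tests of these genes restate the separation they were named for.

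**Figure D5:**
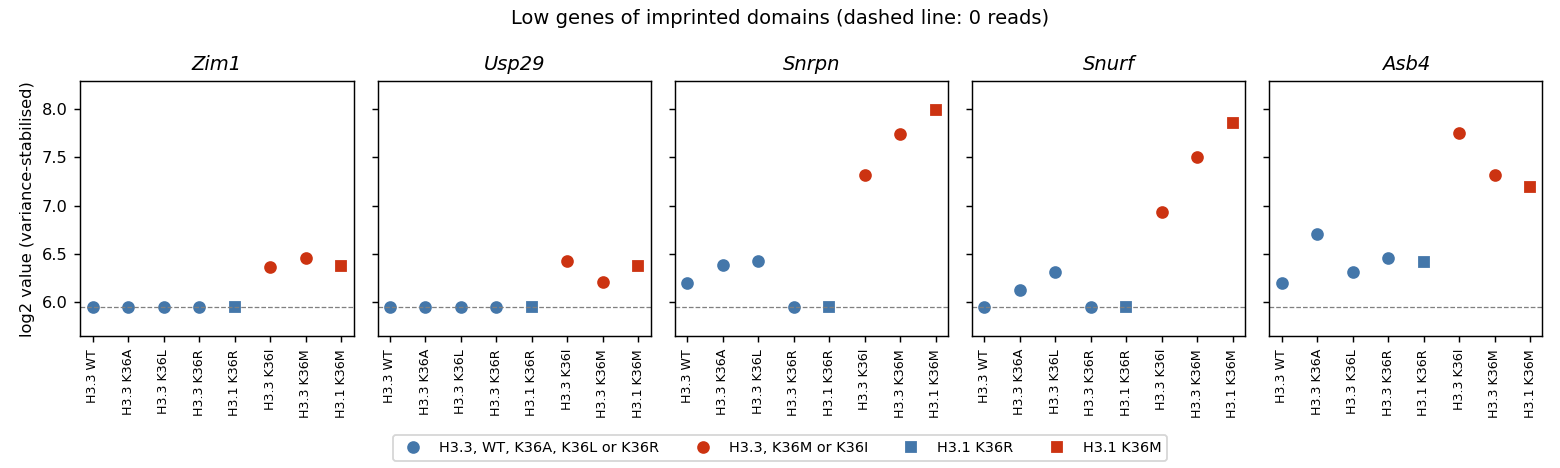
Log2 values (variance-stabilised, y axis) of 5 low genes of imprinted domains by library (x axis), coloured and shaped by class and histone, with the dashed line at 0 reads. All 3 red points lie above every blue point in each panel, and Zim1 and Usp29 sit on the line in all 5 blue libraries. The panels were picked after the values were seen, from low genes in which the classes separate. In other low genes, such as Igf2 and Dlk1, the classes overlap.

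Among 25 genes that set, read or keep imprints, 21 passed the filter, of which 1 rose and 1 fell in the class test, beside 13.3% of all genes. Tet1, which oxidises methylated cytosine, fell by 0.91 (SE 0.12, limma adjusted p = 0.00237), with 212 to 283 normalised reads in the class and 444 to 654 in the other 5 libraries. Zfp57, the reader of the hexamer shown in capitals above, rose by 0.69 (SE 0.17, adjusted p = 0.0286), with 938 to 1394 in the class and 511 to 830 in the others. Zfp57 fell short once any of H3.3 WT, K36I, K36M or K36R was removed (adjusted p = 0.0546 to 0.115). Dnmt1, the maintenance DNA methyltransferase (-0.06, SE 0.13), and the insulator protein gene Ctcf (-0.20, SE 0.09) did not pass (limma adjusted p = 0.831 and 0.180).

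Genes that the members act with were read from a list of 22, of which 19 passed the filter. In the class test 1 rose and 6 fell, 7 of 19 beside 13.3% of all genes, with a median difference of -0.04. The list was chosen with earlier results of these data known, so this count is a description only. Igf1, the growth factor related to Igf2, fell by 2.68 (SE 0.61, limma adjusted p = 0.0222), with 28.9 to 78.9 normalised reads in the class and 153 to 2134 in the others. Irs1, which relays insulin and IGF receptor signals, fell by 1.49 (SE 0.21, adjusted p = 0.00280), and the Notch receptor gene Notch1 by 1.95 (SE 0.17, adjusted p = 3.33e-04). Igf2bp3, which encodes a protein that binds Igf2 RNA, rose by 2.07 (SE 0.54, adjusted p = 0.0370), with 2020.1 to 2225 normalised reads in the class and 181 to 1302 in the others. Igf1 fell short by limma-voom (adjusted p = 0.118) and once any of H3.3 WT, K36I, K36M or K36R was removed (0.0521 to 0.0807). Igf2bp3 fell short when any library but H3.3 K36A or H3.3 K36L was removed (adjusted p = 0.0575 to 0.114). The receptor genes Igf1r (-0.04, SE 0.11), Insr (-0.04, SE 0.07) and Igf2r (-0.13, SE 0.18) did not pass.

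For members that spanned at least 2 on the log2 scale and passed the filter, the genes with the most similar profile over the 8 libraries were found among 11870 others. Likeness was the root mean square difference after each gene was centred on its own mean, and it describes these libraries, which share a parent line. The nearest to Meg3 were Rian (0.13) and Mirg (0.22), both of its own domain. The nearest to Ndn were its neighbour Peg12 (0.36) and Mlf1 (0.40). The nearest to Peg3 were Cst6 (0.34) and Aspa (0.36), to H19 Padi2 (0.48) and Plxnb3 (0.61), and to Mest Aspn (0.66) and Plxna4 (0.67). Of these 10 genes, 3 are listed above as genes of imprinted domains: Rian, Mirg and Peg12.

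Markers of other cell types were also summed. The leukocyte, neural and placental sums did not overlap between the classes, whereas the epithelial, endothelial and skeletal muscle sums did. The 5 leukocyte genes summed to 3869 to 10043 normalised reads in the K36M/I class, most of it Cd53 (3310 to 9176), and 351 to 699.7 in the others, while the defining leukocyte gene Ptprc was at 7.9 or below in every library. The 5 neural genes summed to 3079 to 4272 in the class and 7730 to 18177 in the others, with Map2 at 2019.6 to 2446 and 7201 to 15698, and with Rbfox3 and Sox10 at 5.8 or below. The 5 epithelial genes summed to 706 to 1144 and 295 to 795, with Epcam at 2.2 or below and most of it Cdh1. The 5 endothelial genes summed to 14.5 to 41.0 and 37.4 to 85.7, and the 5 skeletal muscle genes to 160 to 188 and 106 to 223, with Myf5 at 0 everywhere. The 5 placental genes summed to 17.9 to 56.3 and 5.75 to 12.3, with Tpbpa at 0 everywhere. Of these, Prl3d1 had 2.63 to 47.7 in the class and 0 in the others, and Elf5 overlapped (4.25 to 15.8 and 5.75 to 12.3). The part of these differences in the values of the imprinted genes was not tested. In bulk libraries, fewer cells with a transcript and less transcript per cell cannot be told apart.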

How the data were processed

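RNA-seq of 8 libraries was deposited as 1 table of 31276 genes, whose columns were matched to libraries by transgene name. Per the submitters' processing notes, the authors used Trimmomatic 0.32, STAR 2.3.0e, featureCounts 1.4.4 and DESeq2 on build mm10. Settings, annotation and strand: not given in the sources used here. What the authors deposited are log2 values from a variance-stabilising transformation, not corrected for gene length. Its inversion gave whole reads for 100% of values (within 0.001 reads).

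Tests were two-sided and used limma 3.58.1 (R 4.3.3, variance trended on mean level), called at an adjusted p under 0.05. They were class (3 against 5 libraries), K36M against K36R (2 against 2, histone as a term), histone (2 against 6, class as a term) and the interaction. The filter kept 14215 genes and left out 17061. Alternatives were other filters, scales, covariates, limma-voom and each library left out. All members were reported. Of the wider imprinted list, called genes were named, up to 6 each way, and up to 4 of each other list. Members and lists were chosen with earlier results of these data known.

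On simulated data, the class test (14137 genes) recovered 82% of 100 genes changed by 1 and 95% of 100 changed by 2. The shares were 79% and 91% for histone (14141 genes), 0% and 40% for K36M against K36R (14100 genes), and 20% and 72% for the interaction (14150 genes). Changes were planted only in genes with a mean above 100 normalised reads, so the shares do not cover lower genes. Fewer genes were changed than the class test called in the real data, so the adjusted threshold differs from the real one.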

Additional observations from a re-analysis of the deposited data

Results flagged for a closer look

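Among 22 genes checked in the 5 libraries without K36M or K36I, Atp10a stood apart in H3.1 K36R. Its log2 value of 11.94 (3816 normalised reads) was separated from the nearest of the others by 0.824 of the group's whole range, above the critical value of 0.71 for 5 samples. Chance alone flags about 1 in 20 groups, but that rate does not apply here. Atp10a was among the genes checked because it was called lower in H3.1, and H3.1 K36R is the only H3.1 library of these 5. H3.1 K36M, outside these 5, stood at 12.04. The flag thus restates the histone difference for which Atp10a was named.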

How the results depend on the processing

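Of 535 refits of named genes, 474 kept direction and side of the threshold, 39 lost a call, 16 gained one and 6 reversed. Called members in the class comparison (1) became 2 without the filter, with library medians set equal, on log2 of normalised reads plus 1, by limma-voom or with histone as a term, 4 in the H3.3 libraries alone and 5 with array weights. The member gained without the filter was Zim1, which entered that fit only through the class libraries. The wider list (4) became 10 without the filter, 7 with histone as a term, 8 in H3.3 alone and 13 with array weights, and the upkeep list (2) became 5 with array weights. Over all genes the class count (1887) became 2959 with histone as a term and 4074 with array weights, and of 1961 calls with medians equal 1156 were higher, against 917 of 1887. The histone count (1567) became 11 with the 4 K36M or K36R libraries, where Mest (-0.16) and Ndn (-0.12) reversed, and 432 without the class term, and by limma-voom 781 of 1230 calls were higher, against 803 of 1567. K36M against K36R (616) became 1256 without the filter, 1277 by limma-voom, 218 without the histone term and 1147 with the spread from all 8 libraries, and the interaction (0) became 798 without the filter.

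With each library left out in turn, class calls ranged from 994 (without H3.3 K36M) to 2049, with 1220 without H3.3 K36I and 1228 without H3.3 WT. The same range was 0 to 3 for members, 2 to 7 for the wider list, 1 to 3 for the upkeep list, 3 to 7 for the partner list, 157 (without H3.1 K36M) to 1942 for histone and 0 to 0 for the interaction. Reversals occurred in the histone difference of Plagl1 (-0.70 to 0.0041) and the interactions of Ndn (-1.01 to 0.42) and Grb10 (-0.044 to 0.23), and none of these was called. The cause of these shifts was not tested. In such fits a lone H3.1 library is assumed to vary like the others. K36M against K36R was not refitted this way, since 3 libraries leave no residual degrees of freedom. By replicate number, no paired analysis was possible because the labels carry none; histone was a term where stated. Zim1, Usp29 and, in the K36M/I class, H19 rest on 8 reads or fewer per library, so depth limits their differences.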
